A study of Mus musculus with 32 samples.

Results

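*Cyp2c70* and 9 of its paralogs (*Cyp2c29*, *Cyp2c37*, *Cyp2c38*, *Cyp2c39*, *Cyp2c40*, *Cyp2c50*, *Cyp2c54*, *Cyp2c55* and *Cyp2c69*) were followed through 32 mouse livers by RNA-Seq. The 10 genes were taken by symbol from a table of 54532 genes, and all 10 carried reads in every mouse and passed the filter on low counts in every comparison. All mice were C57BL/6, 12 weeks old, and fell into 8 groups of 4. Each sex had WT mice and *Cyp2c70* KO mice, and each genotype was fed plain chow or chow with 0.006% (w/w) SC-435, about 11 mg/kg/day. SC-435 blocks the ileal bile acid transporter (IBAT), which recovers bile acids from the gut. The *Cyp2c70* KO mice carried a CRISPR-Cas9 deletion that takes out exon 2 in every tissue, bred from 1 founder line, so that the KO groups share the rest of that line's background. The question was whether any paralog was higher where *Cyp2c70* was lost, and whether SC-435 changed this.

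The Cyp2c enzymes are cytochrome P450 monooxygenases of the endoplasmic reticulum, most of them made in hepatocytes, and they take electrons from NADPH through P450 oxidoreductase. CYP2C70 hydroxylates chenodeoxycholic acid and ursodeoxycholic acid to the hydrophilic muricholic acids, the step that sets the mouse bile acid pool apart from the human one. Its paralogs are known mainly as epoxygenases and hydroxylases of arachidonic acid and other fatty acids, and as drug-metabolising enzymes. Several are under the pituitary growth hormone pattern that differs between the sexes, and several respond to the nuclear receptors CAR and PXR.

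The 10 genes lie in 1 cluster on chromosome 19 (GRCm38). *Cyp2c70* is at chr19:40153353-40187333 on the minus strand, the starts of its nearest paralogs *Cyp2c50* and *Cyp2c54* lie at -97.64 and -113.5 kb from its own start, and *Cyp2c55* is the farthest at -1180 kb. Exon 2 of *Cyp2c70*, the exon that the deletion removes, is chr19:40183866-40184028 and has 163 bases, a length that is not a multiple of 3. All 9 paralogs have an exon 2 of the same length. It is shown 5′ to 3′ on the gene's strand, with capitals at the 29 bases that differ from the aligned base of all 9 paralogs.

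Cyp2c70 exon 2: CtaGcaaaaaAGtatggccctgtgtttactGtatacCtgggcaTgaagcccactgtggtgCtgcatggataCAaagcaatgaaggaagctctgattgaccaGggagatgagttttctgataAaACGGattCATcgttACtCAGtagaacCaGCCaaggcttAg

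Exon 2 of the paralogs was 59.5% (*Cyp2c40*) to 69.3% (*Cyp2c37* and *Cyp2c50*) identical to it. Over the whole coding sequence *Cyp2c70* was 62.7% (*Cyp2c40*) to 69.8% (*Cyp2c55*) identical to the other 9 genes, and no stretch of 50 bases of its transcript occurred in a transcript of any other gene. The paralogs were closer to each other. *Cyp2c37*, *Cyp2c50* and *Cyp2c54* form one near-identical set, with 96.1% identity between *Cyp2c37* and *Cyp2c50*, *Cyp2c38* and *Cyp2c39* were 94.2% identical, and *Cyp2c40* and *Cyp2c69* were 92.4% identical. Unpaired bases counted as differences in these coding values. The coding sequence used for *Cyp2c40* had 1560 bases, against 1467 in *Cyp2c70* and 1473 in *Cyp2c69*, which lowers its identity to both. Of all 50-base stretches, 72.1% of those in *Cyp2c40* and 54.8% of those in *Cyp2c69* recurred in another gene (*Cyp2c67*, *Cyp2c68*, each other and, for *Cyp2c69*, *Cyp2c37*). The share was 25.7% to 30.7% in *Cyp2c37*, *Cyp2c50* and *Cyp2c54*, 12.0% in *Cyp2c39*, 7.45% in *Cyp2c38*, 2.08% in *Cyp2c29* and 1.13% in *Cyp2c55*. How the counting placed reads from such stretches is not given in the sources used here, so the single values within these sets are uncertain. Sums over *Cyp2c37*, *Cyp2c50* and *Cyp2c54*, and over *Cyp2c40*, *Cyp2c67*, *Cyp2c68* and *Cyp2c69*, are given in some of the comparisons.

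*Cyp2c40* and *Cyp2c69* also resemble each other in front of the gene. The bases before their starts (RefSeq, GRCm38, minus strand) could be aligned over 220 positions with 3 differences, shown in capitals, although the annotated starts are offset by 30 bases. They are printed because these are the members with the widest sex difference in the liver, and other pairs are close as well. The whole promoter windows were also aligned with gaps, with unpaired bases counted as differences, so that an offset of the starts lowers the value. By this measure *Cyp2c40* and *Cyp2c69* were 80.9% identical, *Cyp2c37* and *Cyp2c50* 86.6%, and *Cyp2c69* and *Cyp2c68* 91.1%.

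Cyp2c40, chr19:39812815-39813034: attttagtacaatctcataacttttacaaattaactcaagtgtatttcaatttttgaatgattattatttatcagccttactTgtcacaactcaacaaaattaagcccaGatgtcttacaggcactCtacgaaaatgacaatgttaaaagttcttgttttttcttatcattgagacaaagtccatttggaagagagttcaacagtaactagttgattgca

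Cyp2c69, chr19:39886800-39887019: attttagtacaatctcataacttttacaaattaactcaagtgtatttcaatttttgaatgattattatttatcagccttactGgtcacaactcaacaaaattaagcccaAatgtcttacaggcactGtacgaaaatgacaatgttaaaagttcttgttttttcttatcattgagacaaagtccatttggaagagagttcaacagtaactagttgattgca

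Both hold CAAAGTCCA, a core recognised by HNF4A, the nuclear receptor that drives much of the hepatocyte program. A search on both strands of the 300 bases around the start found it in *Cyp2c70*, *Cyp2c40* and *Cyp2c69* among the 9 members with a promoter entry, and in 0.475% of 32851 mouse promoters. CAAAGTCCA begins 64 bases before the start in *Cyp2c70*, 45 in *Cyp2c40* and 75 in *Cyp2c69*. It is also in the windows of their neighbours *Cyp2c67*, 125 bases before the start, and *Cyp2c68*, 77 bases before it. Letters searched for STAT5 (TTCNNNGAA, in 8.3% of promoters) and HNF1 (GTTAATNATT, in 0.399%) were in none of the 9 windows, those for C/EBP (TTGCNNAA, in 10.8%) were in *Cyp2c37*, *Cyp2c40* and *Cyp2c69*, and the TATA box letters TATAAA (in 13.6%) were in 7 windows.

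Counts per library came to between 36476021 and 44771350. Levels are given as CPM, the reads of a gene scaled to a common library total with TMM factors over all 32 libraries, and levels of different genes are compared only per kb of gene length. Fold changes are log2 with their standard error, from edgeR's quasi-likelihood test on the mice compared, and a gene passed the test at an adjusted p below 0.05 (Benjamini-Hochberg over all genes tested). In bulk liver, fewer cells of a type and less RNA per cell cannot be told apart. The liver label held, with albumin (*Alb*) at a mean of 40323 to 84749 CPM in every group. The male WT chow replicate 1 stood apart with the lowest TMM factor, 0.622, against up to 1.26 elsewhere, and the calls that change without it are given both ways. After TMM the middle of all genes tested (median log2 fold change) lay within 0.05 of 0, while scaling by library size alone put it at 0.17 (females) and 0.29 (males) between genotypes on chow, -0.18 and -0.23 for SC-435 in KO mice, -0.17 and -0.29 in the interactions of genotype and diet, 0.15 between the sexes and -0.12 in the interaction of sex and genotype.

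*Cyp2c70* itself was measured first. In females, chow-fed WT mice had 838, 702, 585 and 689 CPM, and chow-fed KO mice had 151, 175, 157 and 176 CPM. In males the chow-fed WT mice had 772, 521, 571 and 639 CPM and the KO mice 188, 170, 155 and 182 CPM. No KO mouse reached the level of any chow-fed WT mouse. The log2 fold change was -2.10 ± 0.13 in females (adjusted p = 0.000102), 4.3-fold lower, and -1.81 ± 0.19 in males (adjusted p = 0.00563), 3.51-fold lower. At least 4280 reads remained in every KO library. The table gives reads per whole gene, so reads of exon 2 were not told apart from reads of the rest of its 9 exons.

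SC-435 also went with lower *Cyp2c70*. WT females on SC-435 had 435, 413, 467 and 567 CPM, all below the 4 chow-fed WT females, a log2 fold change of -0.58 ± 0.13 (adjusted p = 0.0382). This call passed in only 2 of 8 fits that each left out 1 mouse, those without WT chow replicate 3 or WT SC-435 replicate 4, and the highest adjusted p was 0.103. WT males on SC-435 had 348, 271, 281 and 372 CPM, again below every chow-fed WT male, and the log2 fold change of -0.98 ± 0.20 did not pass (adjusted p = 0.229, and 0.0197 without WT chow replicate 1). In KO mice the transcript that remained was at 151, 147, 134 and 130 CPM in females on SC-435 (log2 fold change -0.23 ± 0.09, adjusted p = 0.0942). In KO males on SC-435 it was at 109, 150, 113 and 120 CPM and fell by 0.50 ± 0.12 on the log2 scale (adjusted p = 0.0225), a call that was lost without KO SC-435 replicate 1, 3 or 4 (highest adjusted p 0.0718). Between genotypes on SC-435 the log2 fold change of *Cyp2c70* was -1.74 ± 0.10 in females (adjusted p = 3.48e-05) and -1.37 ± 0.14 in males (adjusted p = 0.00627). The male call was lost without KO SC-435 replicate 1 or 4, with an adjusted p of at most 0.0508.

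**Figure D1:**
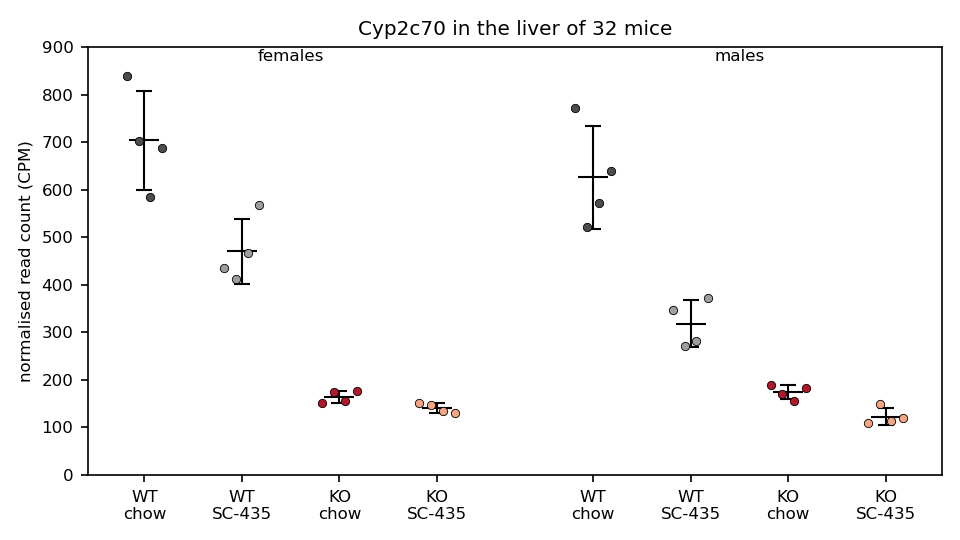
Normalised read count of *Cyp2c70* (CPM, linear axis) in each of 32 mice by sex, genotype and diet. Points are mice and bars the mean ± SD of 4. The 16 KO mice lie between 109 and 188 CPM, below the 16 WT mice, which lie between 271 and 838 CPM.

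The order of the 10 genes differed between the sexes. The levels per kb use the gene lengths given with the counts, and the order depends on them. For *Cyp2c29* (3061 bases) and *Cyp2c50* (2918 bases) these are far longer than the longest coding transcript (1783 and 1812 bases). Per kb of transcript both genes would stand higher. In chow-fed WT females *Cyp2c29* (539 ± 18.1 CPM per kb, mean ± SD, n = 4), *Cyp2c37* (538 ± 68.0) and *Cyp2c69* (526 ± 306) were the highest, followed by *Cyp2c50* (397 ± 27.3), *Cyp2c70* (355 ± 52.4), *Cyp2c54* (296 ± 25.5), *Cyp2c40* (206 ± 45.1), *Cyp2c38* (36.9 ± 1.32), *Cyp2c39* (4.53 ± 0.48) and *Cyp2c55* (4.08 ± 1.39). From *Cyp2c29* to *Cyp2c54* each gene overlapped the next in the range of its 4 mice, as did *Cyp2c39* and *Cyp2c55*, while *Cyp2c40* and *Cyp2c38* stood apart from both of their neighbours. In chow-fed WT males *Cyp2c29* led at 773 ± 432 CPM per kb, then came *Cyp2c50* (384 ± 150), *Cyp2c70* (316 ± 54.8), *Cyp2c54* (264 ± 120) and *Cyp2c37* (189 ± 35.3), each overlapping the next. The other 5 were far lower in males, from 8.67 ± 2.30 CPM per kb for *Cyp2c38* down through *Cyp2c55* (7.37 ± 1.42), *Cyp2c40* (4.03 ± 0.95) and *Cyp2c69* (1.198 ± 0.499) to *Cyp2c39* (0.642 ± 0.155). Of these, *Cyp2c38* overlapped *Cyp2c55* and *Cyp2c69* overlapped *Cyp2c39*. *Cyp2c70* thus was the fifth of 10 in WT females and the third in WT males, and in chow-fed KO mice it was the sixth in females (83.1 ± 6.36 CPM per kb) and the fourth in males (87.8 ± 7.46), overlapping both neighbours in each sex.

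Between the sexes, 5 of the 9 paralogs were higher in chow-fed WT females than males and none was lower, where 0.747% of 15525 genes tested were higher in females. *Cyp2c69* was at 1307, 1468, 597 and 350 CPM in females and at 0.858, 2.52, 2.23 and 2.88 CPM in males, a log2 fold change of 8.76 ± 0.68 (adjusted p = 0.000414). *Cyp2c40*, whose enzyme makes hydroxylated arachidonic acid, was at 493, 469.5, 425 and 287 CPM in females and at 5.42, 9.33, 8.40 and 9.67 CPM in males (5.66 ± 0.30, adjusted p = 3.64e-05). The low male values rest on 22 to 111 reads for *Cyp2c69* and 139 to 373 reads for *Cyp2c40*. Summed over *Cyp2c40*, *Cyp2c69* and their near-identical neighbours *Cyp2c67* and *Cyp2c68*, WT females had 1307 to 2610 CPM and WT males 503 to 605 CPM. *Cyp2c39* (2.80 ± 0.24, adjusted p = 0.000662), *Cyp2c38* (2.09 ± 0.22, adjusted p = 0.00166) and *Cyp2c37* (1.51 ± 0.19, adjusted p = 0.00518) were higher in females as well. For all 5 called genes the sexes did not overlap, in the same mice that gave the calls, and the share of all genes without overlap was not counted. *Cyp2c70* did not pass between the sexes (log2 fold change 0.17 ± 0.19, adjusted p = 0.782). The sum over *Cyp2c37*, *Cyp2c50* and *Cyp2c54* overlapped between the sexes, at 2592 to 2826 CPM in WT females and 1493 to 2998 CPM in WT males. Without male WT chow replicate 1, *Cyp2c50* and *Cyp2c54* also passed (adjusted p = 0.0456 and 0.0138), both higher in females. With scaling by library size alone, 133 genes were higher and 84 lower in females, against 116 and 116 after TMM, and the same 5 paralogs passed.

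On chow, the loss of *Cyp2c70* went with lower, not higher, levels of most paralogs in females. Of the 9 paralogs, 5 were lower in KO than in WT females (*Cyp2c39*, *Cyp2c40*, *Cyp2c50*, *Cyp2c54* and *Cyp2c69*) and 1 was higher (*Cyp2c55*), where 5.05% of 16205 genes were lower and 9.83% higher. The median log2 fold change of the 9 was -1.05, beside -0.02 over all genes tested. With scaling by library size alone the median over all genes was 0.17, the calls over all genes went from 1593 higher and 818 lower to 2727 higher and 275 lower, and *Cyp2c39* no longer passed among the paralogs.

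*Cyp2c50* and *Cyp2c54*, which oxidise arachidonic and linoleic acid, gave the steadiest differences. *Cyp2c50* was at 1172, 1186, 1233 and 1046 CPM in WT females and at 420, 524, 449 and 862 CPM in KO females, a log2 fold change of -1.05 ± 0.21 (adjusted p = 0.0103). *Cyp2c54* was at 538, 556, 546 and 458 CPM in WT and at 238, 207, 199 and 373 CPM in KO females (-1.05 ± 0.19, adjusted p = 0.00729). All 4 KO mice were below all 4 WT mice for both genes, and replicate 4 was the KO mouse nearest to WT. Their near-identical neighbour *Cyp2c37* was at 882, 874, 1047 and 1125 CPM in WT and 440, 281, 97.7 and 635 CPM in KO females (-1.44 ± 0.43), and at an adjusted p of 0.05 it fell just short of the threshold, which it passed without KO replicate 3 or 4 (lowest adjusted p 0.0109). Summed over *Cyp2c37*, *Cyp2c50* and *Cyp2c54*, the KO females had 746 to 1871 CPM and the WT females 2592 to 2826 CPM.

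The female-biased *Cyp2c69* and *Cyp2c40* were lower in KO as well, with a wide spread between mice. *Cyp2c69* was at 97.9, 61.0, 216 and 400 CPM in chow-fed KO females, with a log2 fold change of -2.27 ± 0.61 (adjusted p = 0.0324), and the lowest WT female (350 CPM) was below the highest KO female. *Cyp2c40* was at 69.0, 51.9, 131 and 302 CPM in KO females (-1.60 ± 0.48, adjusted p = 0.0484), where the WT female at 287 CPM again overlapped the KO group. The sum over *Cyp2c40*, *Cyp2c69* and their near-identical neighbours *Cyp2c67* and *Cyp2c68* was 391 to 1212 CPM in KO and 1307 to 2610 CPM in WT females. *Cyp2c39*, a hydroxylase of retinoic acid, was at 7.91, 7.78, 9.54 and 7.72 CPM in WT and 2.59, 3.72, 2.74 and 7.33 CPM in KO females (-1.02 ± 0.30, adjusted p = 0.0458).

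*Cyp2c29*, an arachidonic acid epoxygenase, and *Cyp2c38* did not pass. *Cyp2c29* was at 1710, 1676, 1627 and 1584 CPM in WT and at 1161, 971, 354 and 1394 CPM in KO females (log2 fold change -0.77 ± 0.32, adjusted p = 0.135). *Cyp2c38* was at 107, 111, 105 and 102 CPM in WT females, and at 13.8, 10.5, 16.05 and 92.4 CPM in KO females (-1.68 ± 0.61, adjusted p = 0.0916). The 3 KO females other than replicate 4 had less than any WT female by a wide margin, and without that mouse the log2 fold change of *Cyp2c38* was -2.96 (adjusted p = 9.93e-06).

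*Cyp2c55* was the exception. This gene, which codes for an arachidonic acid hydroxylase known from the intestine and from liver after CAR or PXR activation, was at 11.5, 9.14, 5.34 and 6.53 CPM in WT and at 20.3, 26.4, 13.9 and 15.9 CPM in KO females. Every KO female was above every WT female, and the log2 fold change was 1.23 ± 0.26 (adjusted p = 0.0133). It is, with *Cyp2c39*, the paralog of the lowest level per kb in chow-fed WT females. Its mean was 8.13 ± 2.77 CPM in WT and 19.1 ± 5.58 CPM in KO females, while the sum of all 9 paralogs was at 5787 ± 640 CPM in WT and 2540 ± 1106 CPM in KO females (mean ± SD, n = 4).

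Leaving out 1 mouse at a time, *Cyp2c50*, *Cyp2c54* and *Cyp2c55* passed in all 8 fits. *Cyp2c69* passed in 3, and not without KO replicate 1, 2 or 3 or WT replicate 1 or 2 (highest adjusted p 0.0807). *Cyp2c39* and *Cyp2c40* passed only without KO replicate 4, and their adjusted p reached 0.124 and 0.114 without any of the other 7. The count of paralogs that passed was 3 without KO replicate 1 or 2 or WT replicate 1 or 2, 4 without KO replicate 3 or WT replicate 3 or 4, and 8 without KO replicate 4.

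In males, none of the 9 paralogs passed between chow-fed KO and WT mice, where 1.08% of 15862 genes passed in either direction. By edgeR 5 of the 9 had an unadjusted p below 0.05, all of them lower in KO. How many of all genes reached that unadjusted threshold was not counted, here or in the later comparisons. DESeq2 called 3 (1123 of 17958 genes) and limma's voom with quality weights 5 (2433 of 15862 genes), each of them lower in KO. Over all genes the calls by edgeR went from 172 to 1196 of 16390 without WT chow replicate 1, and to 12 and 10 without WT chow replicate 2 or 3. *Cyp2c29* was at 4338, 1908, 1632 and 1591 CPM in WT and at 965, 1248, 1036 and 466 CPM in KO males, without overlap (log2 fold change -1.31 ± 0.41, adjusted p = 0.17). *Cyp2c37* was at 435, 330, 329 and 284 CPM in WT and 140, 186, 153 and 56.9 CPM in KO males (-1.33 ± 0.33, adjusted p = 0.0991). *Cyp2c54* was at 785, 397, 347 and 341 CPM in WT and 230, 310, 211 and 82.2 CPM in KO males (-1.13 ± 0.41, adjusted p = 0.229). These genes and *Cyp2c38* (-1.03 ± 0.26, adjusted p = 0.102) and *Cyp2c50* (-0.87 ± 0.35, adjusted p = 0.281) all had every KO male below every WT male. None of these 5 passed, and how many of all genes had ranges without overlap was not counted.

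The other 4 overlapped between the genotypes in males. *Cyp2c69* (log2 fold change -0.95 ± 0.49, adjusted p = 0.392) and *Cyp2c40* (-0.63 ± 0.35, adjusted p = 0.429) were low in both groups, and *Cyp2c39* was at -0.11 ± 0.32 (adjusted p = 0.892). *Cyp2c55* was at 16.7, 17.4, 13.4 and 11.4 CPM in WT and at 8.71, 11.1, 21.1 and 28.7 CPM in KO males, spread on both sides of the WT range (0.29 ± 0.37, adjusted p = 0.749). The median of the 9 was -0.95, beside 0.04 over all genes. Without WT chow replicate 1 the count of paralogs that passed was still 0, with 5 at an unadjusted p below 0.05. The summed 9 paralogs were at 7391, 3648, 3241 and 3125 CPM in chow-fed WT and at 2020, 2624, 2046 and 949 CPM in chow-fed KO males.

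Whether the effect of genotype on chow differed between the sexes was tested as an interaction. None of the 9 paralogs passed, nor did *Cyp2c70* (log2 -0.25 ± 0.22, adjusted p = 0.923), where 0.0235% of 17026 genes passed. No paralog had an unadjusted p below 0.05 by edgeR, DESeq2 called none, and voom called *Cyp2c55*. Without female KO chow replicate 4, *Cyp2c38* passed with an adjusted p of 0.0408.

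**Figure D2:**
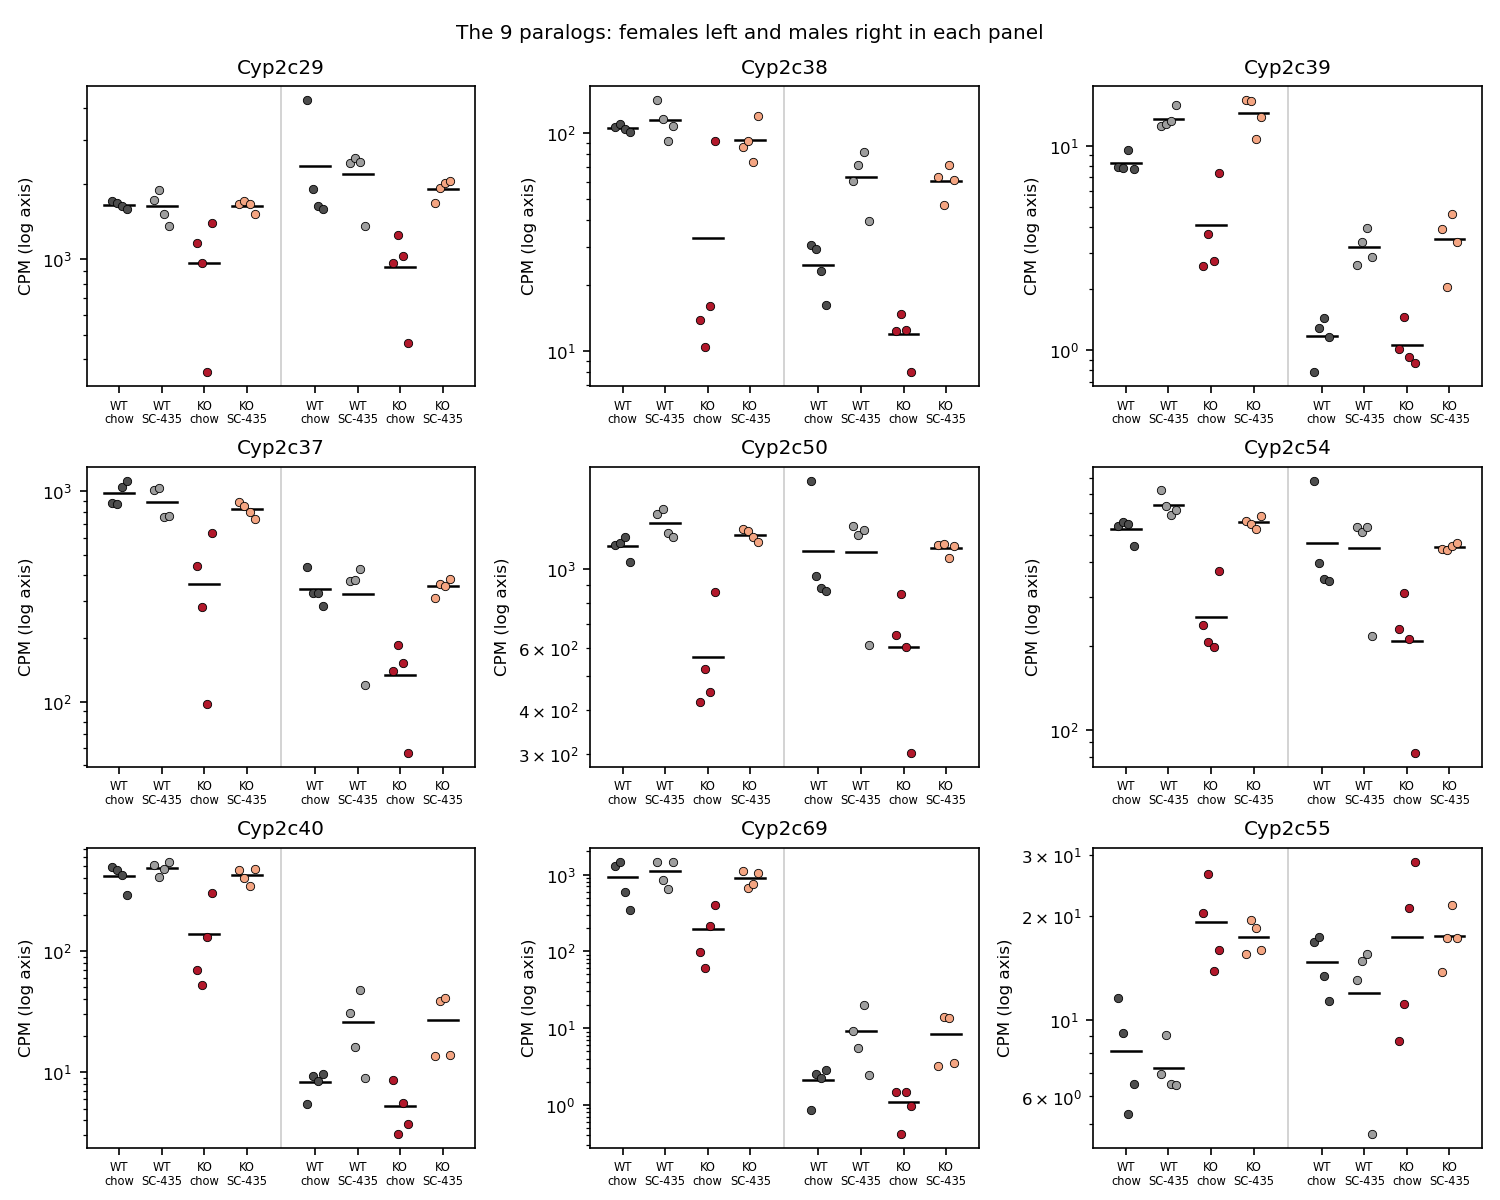
Normalised read count of each of the 9 paralogs (CPM, log axis) in 32 mice, females on the left and males on the right of each panel. Points are mice and lines the means of 4. For *Cyp2c50* in females the chow-fed KO mice (420 to 862 CPM) lie below the 3 other groups, and for *Cyp2c69* the chow-fed WT females (350 to 1468 CPM) lie far above the chow-fed WT males (0.858 to 2.88 CPM).

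Under SC-435, most paralogs were higher in KO mice than under chow, in both sexes. In females 5 of the 9 paralogs were higher and none was lower, where 8.56% of 16332 genes were higher. These were *Cyp2c39* (log2 fold change 1.83 ± 0.31, adjusted p = 0.00575), *Cyp2c40* (1.61 ± 0.46, adjusted p = 0.0386), *Cyp2c50* (1.15 ± 0.21, adjusted p = 0.00697), *Cyp2c54* (1.13 ± 0.19, adjusted p = 0.00519) and *Cyp2c69* (2.20 ± 0.50, adjusted p = 0.016). The chow-fed KO mice are part of both this comparison and the one between genotypes on chow, so the calls of both rest in part on the same 4 livers. The median of the 9 was 1.17, beside -0.02 over all genes.

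KO females on SC-435 had 1294, 1285, 1229 and 1190 CPM of *Cyp2c50*, above all 4 chow-fed KO females. They had 462, 402, 347 and 479 CPM of *Cyp2c40* and 1097, 662, 756 and 1043 CPM of *Cyp2c69*, again with no overlap. For *Cyp2c39* they had 16.8, 16.5, 10.8 and 13.8 CPM. That range lies above the chow-fed WT females as well, whose highest value was 9.54 CPM. *Cyp2c37* (1.17 ± 0.43, adjusted p = 0.0835), *Cyp2c29* (0.75 ± 0.32, adjusted p = 0.133) and *Cyp2c38* (1.49 ± 0.62, adjusted p = 0.122) did not pass. All 3 passed without KO chow replicate 4, which took the count from 5 to 8, and *Cyp2c29* and *Cyp2c37* passed without KO chow replicate 3, which took it to 6. It was 4 without any 1 of the other mice. *Cyp2c40* passed among the fits without 1 mouse only in that one, with an adjusted p of up to 0.0866 in the other 7, and the 4 other called paralogs passed in all 8. With scaling by library size alone, 826 genes were higher and 3202 lower, against 1398 and 1508, and 5 paralogs were higher as before. *Cyp2c55* stayed at its KO level, with 15.5, 19.4, 18.5 and 15.9 CPM (log2 fold change -0.14 ± 0.18, adjusted p = 0.628).

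In KO males 8 of the 9 paralogs were higher on SC-435 than on chow, all but *Cyp2c55*, where 8.8% of 15984 genes were higher and 8.36% lower. *Cyp2c38* was at 62.7, 47.0, 71.6 and 61.2 CPM on SC-435 and at 12.4, 14.9, 12.6 and 7.99 CPM on chow (log2 fold change 2.35 ± 0.19, adjusted p = 0.000254). *Cyp2c69* was at 3.16, 13.9, 13.5 and 3.54 CPM on SC-435 and at 1.47, 0.414, 1.47 and 0.956 CPM on chow (2.98 ± 0.59, adjusted p = 0.0131), and *Cyp2c40* at 13.5, 38.7, 41.1 and 13.9 CPM against 8.60, 3.06, 5.502 and 3.70 CPM (2.37 ± 0.46, adjusted p = 0.0122). Both genes stayed far below their level in any chow-fed WT female. Summed with *Cyp2c67* and *Cyp2c68*, they were at 450 to 558 CPM in KO males on SC-435 and at 175 to 299 CPM on chow. *Cyp2c39* rose by 1.71 ± 0.29 on the log2 scale (adjusted p = 0.00685).

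The abundant paralogs had smaller fold changes. *Cyp2c29* was at 1672, 1919, 2009 and 2046 CPM in KO males on SC-435, above all 4 on chow (log2 fold change 1.05 ± 0.26, adjusted p = 0.0264). *Cyp2c37* (1.40 ± 0.30, adjusted p = 0.0161), *Cyp2c50* (0.93 ± 0.26, adjusted p = 0.0374) and *Cyp2c54* (1.13 ± 0.32, adjusted p = 0.0397) were higher as well. All 8 called genes had every SC-435 mouse above every chow mouse. They were called in these same mice, so this adds no separate support, and the share of all genes without overlap was not counted. *Cyp2c55* was at 13.7, 17.3, 21.5 and 17.2 CPM, inside the chow range (0.00 ± 0.34, adjusted p = 0.998). The median of the 9 was 1.40, beside -0.03 over all genes. *Cyp2c38*, *Cyp2c39*, *Cyp2c40* and *Cyp2c69* passed in all 8 fits without 1 mouse. *Cyp2c37* was lost without KO SC-435 replicate 4 (adjusted p = 0.0512), while *Cyp2c29*, *Cyp2c50* and *Cyp2c54* were lost without KO chow replicate 3 or any 1 of the SC-435 mice, and *Cyp2c54* also without KO chow replicate 1, with adjusted p up to 0.0953. The count was 4 with KO SC-435 replicate 4 left out, and 5 with any other SC-435 mouse or KO chow replicate 3 left out. With scaling by library size alone, 755 genes were higher and 2320 lower, against 1407 and 1337, and 8 paralogs were higher as before.

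**Figure D3:**
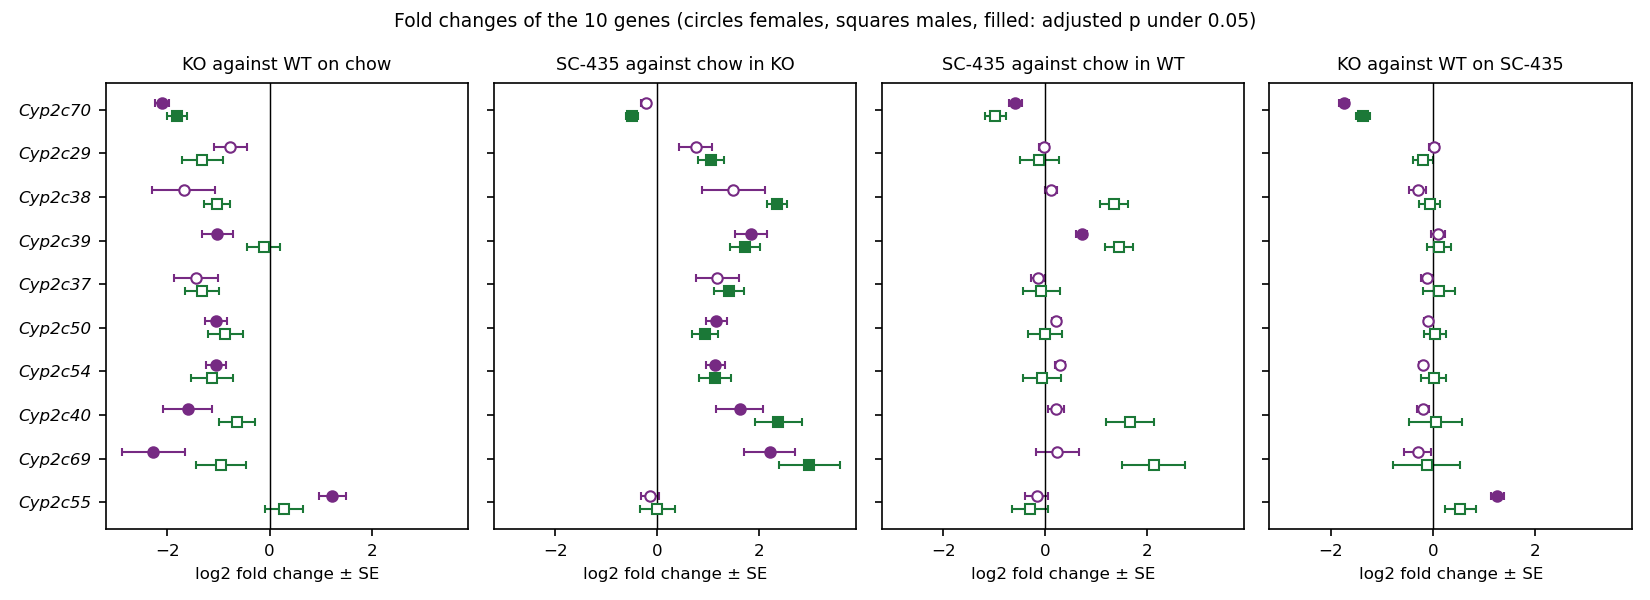
Log2 fold change ± SE of the 10 genes in 4 comparisons, circles for females and squares for males, filled where the adjusted p was below 0.05. On chow most paralogs lie left of 0 in KO mice and *Cyp2c55* lies right of it, the KO mice on SC-435 have all but *Cyp2c70* and *Cyp2c55* right of 0, and between genotypes on SC-435 the points lie near 0 apart from *Cyp2c70* and *Cyp2c55*.

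On SC-435 the members called between genotypes were *Cyp2c70* and, in females, *Cyp2c55*. Of the 9 paralogs 1 passed in females, where 10.9% of 15869 genes passed in either direction, so the count was near the share over all genes. *Cyp2c55* was at 15.5, 19.4, 18.5 and 15.9 CPM in KO and at 6.98, 9.05, 6.50 and 6.49 CPM in WT females on SC-435 (log2 fold change 1.26 ± 0.12, adjusted p = 0.00055), and it passed in all 8 fits without 1 mouse. The other 8 had adjusted p values of 0.111 or more, and their median together with *Cyp2c55* was -0.12. Among them, *Cyp2c54* had every KO female (524 to 585 CPM) below every WT female (591 to 724 CPM), with an unadjusted p of 0.0211 by edgeR. In males no paralog passed, where 0.0324% of 15434 genes passed. None had an unadjusted p below 0.05 by edgeR, and DESeq2 and voom called none. *Cyp2c55* was at a log2 fold change of 0.54 ± 0.31 in males (adjusted p = 0.641), the same direction as in females. The summed 9 paralogs were at 5698 ± 284 CPM in KO and 6234 ± 702 CPM in WT females, and at 3982 ± 200 CPM in KO and 4196 ± 1225 CPM in WT males on SC-435 (mean ± SD, n = 4).

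**Figure D4:**
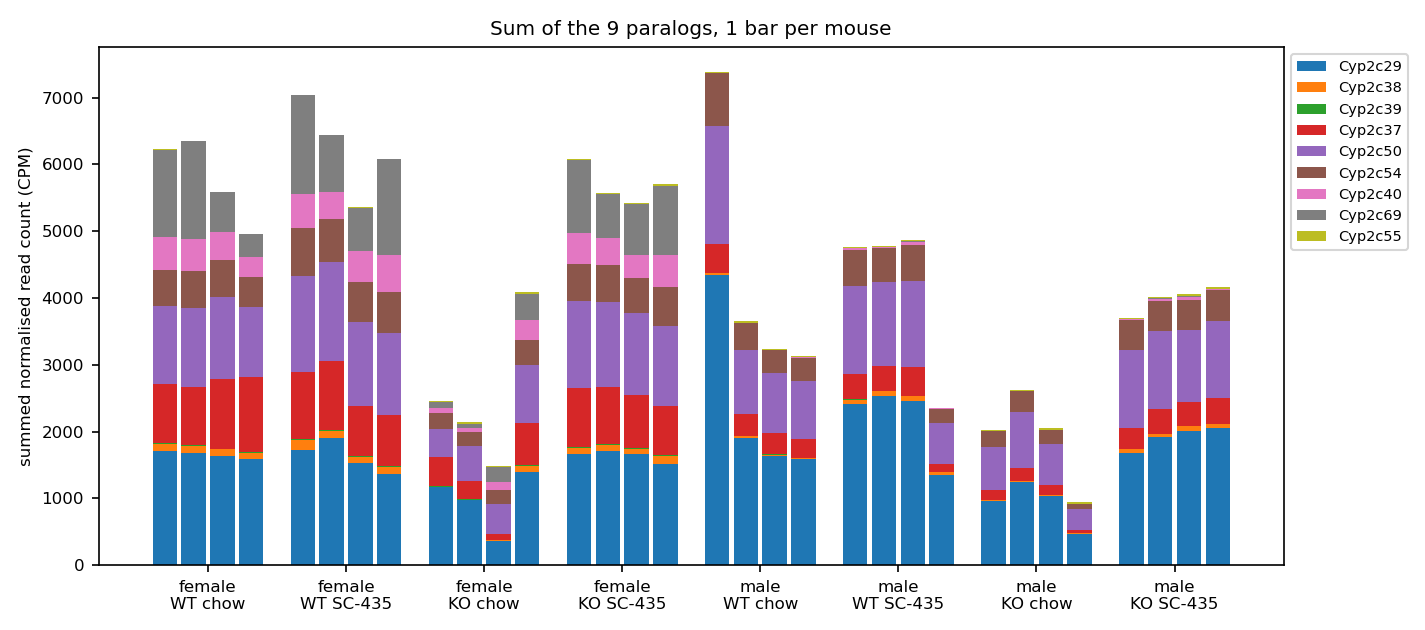
Summed normalised read count (CPM) of the 9 paralogs, 1 bar per mouse from 0, divided by gene. The chow-fed KO mice have the lowest bars of each sex apart from 1 WT male on SC-435 (2360 CPM) that lies among them, and the bars of KO mice on SC-435 run from 5423 to 6089 CPM in females and from 3696 to 4159 CPM in males.

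In WT mice the same diet comparison was made without the KO allele. Of the 9 paralogs, 1 passed in females, where 4.28% of 15739 genes passed. It was *Cyp2c39*, at 12.4, 12.8, 13.2 and 15.8 CPM on SC-435, above all 4 chow-fed WT females (log2 fold change 0.71 ± 0.11, adjusted p = 0.0117), and it passed in all 8 fits without 1 mouse. In males none passed, where 0.0394% of 15211 genes did. By edgeR 4 of the 9 had an unadjusted p below 0.05, DESeq2 called 4 (180 of 18206 genes) and voom 5 (1593 of 15211 genes), all of them higher on SC-435. The 4 by edgeR were *Cyp2c39* (1.45 ± 0.27, adjusted p = 0.164), *Cyp2c38* (1.35 ± 0.28, adjusted p = 0.229), *Cyp2c40* (1.65 ± 0.47, adjusted p = 0.476) and *Cyp2c69* (2.12 ± 0.62, adjusted p = 0.49). *Cyp2c39* was at 2.60, 3.40, 3.95 and 2.84 CPM on SC-435 and at 0.780, 1.29, 1.44 and 1.17 CPM on chow, and *Cyp2c38* at 60.1, 71.6, 82.0 and 39.4 CPM against 30.7, 29.4, 23.3 and 16.2 CPM, both without overlap. Without WT chow replicate 1 both passed (adjusted p = 0.0186 and 0.0294) and the count was 2, where 394 of 15577 genes passed. Over all genes, 2 were higher and 4 lower, against 1 and 0 when scaled by library size alone.

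The interaction of genotype with diet tested whether SC-435 had a different effect in KO than in WT mice. In females *Cyp2c50* (log2 0.93 ± 0.23, adjusted p = 0.0445) and *Cyp2c54* (0.84 ± 0.21, adjusted p = 0.0476) passed, both with a larger rise in KO mice, where 0.859% of 16882 genes passed in that direction. Each passed in 2 of 16 fits without 1 mouse. Both passed without KO chow replicate 4, *Cyp2c50* also without KO SC-435 replicate 4 and *Cyp2c54* also without WT chow replicate 4, and in the other fits their adjusted p reached 0.104 and 0.112. The count was 0 in 13 of these fits, 1 without KO SC-435 replicate 4 or WT chow replicate 4, and 7 without KO chow replicate 4. With scaling by library size alone 109 genes were higher and 838 lower, against 145 and 300, and the same 2 paralogs passed. In males no paralog passed, where 0.0906% of 16555 genes did. By edgeR 4 had an unadjusted p below 0.05, and DESeq2 and voom called none. Over all genes, 2 were higher and 13 lower, against 0 and 12 when scaled by library size alone.

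Other cell types changed with the same groups. In chow-fed KO females the summed level of 8 cholangiocyte markers (*Krt19*, *Epcam*, *Sox9*, *Spp1* and others) was 134 to 300 CPM, against 37.7 to 72.4 CPM in WT females. The 8 macrophage markers summed to 671 to 961 against 397 to 488 CPM, and the 6 markers of stellate cells and fibroblasts to 349 to 900 against 200 to 254 CPM. Of the markers tested 4 of 7, 7 of 8 and 5 of 6 were higher in KO. The 10 hepatocyte markers summed to 66308 to 89141 CPM in KO and 102100 to 126150 CPM in WT females, with 6 of 10 lower and 1 higher, and a median log2 fold change of -0.47, beside -1.05 for the paralogs. Within the KO females, replicate 4 had the lowest cholangiocyte sum and the highest summed paralogs, 4083 CPM. In males the cholangiocyte sum was 146 to 1188 CPM in chow-fed KO against 27.6 to 36.6 CPM in WT mice, with 3 of 7 markers higher. None of the 8 macrophage, 6 stellate cell and 10 hepatocyte markers passed in males, where the macrophage sum was 376 to 1396 CPM in KO and 308 to 570 CPM in WT, and the stellate cell sum 302 to 1166 and 159 to 206 CPM. The hepatocyte sum was 61670 to 91564 CPM in KO and 86528 to 196700 CPM in WT males, with a median log2 fold change of -0.62, beside -0.95 for the paralogs. KO replicate 4 held the highest cholangiocyte sum and, at 949 CPM, the lowest summed paralogs. The markers of these 4 lists that were tested had means of 0.397 CPM (*Cldn7*) or more in every group. Of the lists for other cells, 3 of 3 neutrophil markers tested were higher in chow-fed KO females, 0 of 6 T and B cell markers passed, and 2 of 3 small intestine markers were lower. The part of these cells in the paralog differences was not tested.

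Of the same markers tested, 3 of 7 cholangiocyte, 8 of 8 macrophage and 4 of 6 stellate cell markers were lower with SC-435 in KO females, and 6 of 7, 2 of 8 and 6 of 6 in KO males. In KO females on SC-435 the cholangiocyte sum was 101 to 144 CPM, overlapping that on chow, and the macrophage sum 336 to 517 CPM. In KO males they were 51.2 to 61.2 and 308 to 473 CPM, the latter overlapping the 376 to 1396 CPM on chow. Between genotypes on SC-435, 7 of 7 cholangiocyte and 5 of 6 stellate cell markers were still higher in KO females, whose cholangiocyte sum compares with 32.1 to 39.4 CPM in WT females. The hepatocyte sum was 93247 to 107350 CPM in KO females on SC-435 and 74248 to 96474 CPM in KO males on SC-435, the latter overlapping the 61670 to 91564 CPM of chow-fed KO males. Its 10 markers had a median log2 fold change of 0.14 in females and 0.16 in males, beside 1.17 and 1.40 for the paralogs.

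The other genes of the cluster were looked at in the same way. Of the *Cyp2c* genes outside the 10, *Cyp2c23*, *Cyp2c67* and *Cyp2c68* were expressed, while *Cyp2c65* and *Cyp2c66* had at most 3 reads in any mouse. In chow-fed females all 3 expressed genes were lower in KO: *Cyp2c67* (log2 fold change -2.09 ± 0.54, adjusted p = 0.0273), *Cyp2c68* (-0.76 ± 0.15, adjusted p = 0.00951) and *Cyp2c23* (-0.38 ± 0.10, adjusted p = 0.0265). *Cyp2c23*, which lies 3842 kb away from *Cyp2c70* and outside the cluster, had the smallest of the 3 differences. In males *Cyp2c67* was lower in KO (-1.38 ± 0.25, adjusted p = 0.0445). On SC-435 *Cyp2c67* was higher in KO mice of both sexes (1.88 ± 0.53, adjusted p = 0.0362 in females and 0.94 ± 0.22, adjusted p = 0.0242 in males) and *Cyp2c68* in KO males (0.94 ± 0.11, adjusted p = 0.00164). In chow-fed WT mice the values of these near-identical genes differed by sex in opposite directions. *Cyp2c67* was lower (-0.91 ± 0.18, adjusted p = 0.0426) and *Cyp2c68* higher (1.35 ± 0.15, adjusted p = 0.00205) in females. Of their 50-base stretches 52.8% (*Cyp2c67*) and 43.3% (*Cyp2c68*) recurred in each other, *Cyp2c40* or *Cyp2c69*, so these single values are uncertain.

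Position along the cluster gave no simple order. In females the paralogs nearest to *Cyp2c70*, *Cyp2c50* and *Cyp2c54*, had log2 fold changes of -1.05 in KO mice on chow. *Cyp2c69*, at -300.6 kb, had -2.27, *Cyp2c29*, at -918 kb, had -0.77, and *Cyp2c55* at the far end had 1.23.

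**Figure D5:**
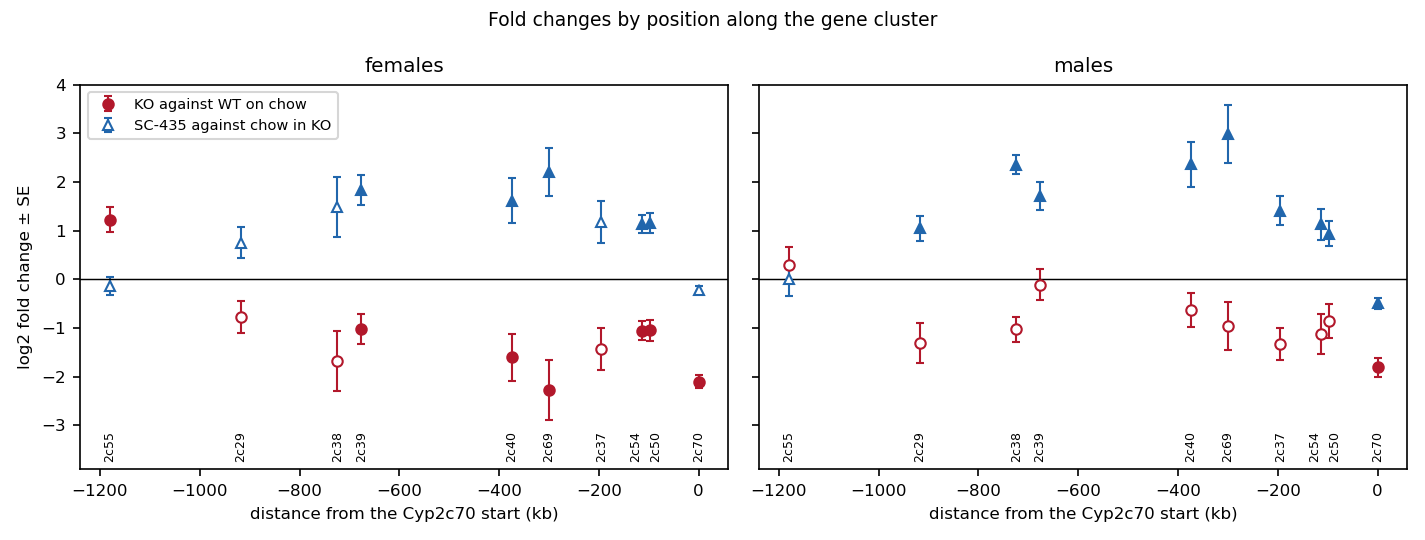
Log2 fold change ± SE of the 10 genes against the distance of their start from that of *Cyp2c70* (kb), with circles for KO against WT on chow and triangles for the SC-435 diet against chow within the KO genotype, filled where the adjusted p was below 0.05. *Cyp2c55*, at -1180 kb, is the paralog whose circle lies above 0 (1.23 in females, and 0.29 in males, not passed and at -0.11 by voom).

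Of the genes with related roles, the P450 electron transfer partners (8 tested, among them *Por* and the cytochrome b5 genes) gave no call on chow between genotypes in either sex (median log2 fold change -0.26 in females and -0.39 in males, beside -0.02 and 0.04 over all genes). With SC-435 6 were higher in KO females and 7 in KO males (medians 0.53 and 0.65, beside -0.02 and -0.03). *Cyb5b* (log2 fold change 1.06 ± 0.21, adjusted p = 0.00951 in females, 0.90 ± 0.12, adjusted p = 0.00262 in males) and the adrenodoxin gene *Fdx1* (0.64 ± 0.10, adjusted p = 0.00425, and 0.63 ± 0.10, adjusted p = 0.00557) were among them. Of CAR, PXR and their targets (14 tested in females), 3 were higher and 2 lower in chow-fed KO females (median -0.27). In males 0 of 11 tested passed on chow (median -0.42). In the chow-fed KO females the CAR gene *Nr1i3* was lower (-1.24 ± 0.21, adjusted p = 0.00509), while the PXR target *Cyp3a11* was higher (0.58 ± 0.14, adjusted p = 0.0238). With SC-435 3 of the list were higher in KO mice of each sex, *Nr1i3* in females (0.84 ± 0.18, adjusted p = 0.0146) and *Cyp2b10*, the classic CAR target, in males (2.46 ± 0.30, adjusted p = 0.00185).

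Of 19 liver transcription factors, 4 were lower and none higher in chow-fed KO females (median -0.17), among them *Hnf4a* (log2 fold change -0.42 ± 0.11, adjusted p = 0.0295) and *Nr1h4*, the bile acid receptor FXR (-0.48 ± 0.12, adjusted p = 0.0243), and 3 were higher and 1 lower with SC-435 in KO females. In chow-fed KO males 1 of the 19 was higher and 0 lower (median -0.51). Of 18 growth hormone axis genes, 2 were higher and 5 lower in chow-fed KO females (median -0.37), while in males 0 of 16 tested passed (median -0.16). *Sult2a1*, female-biased like *Cyp2c40* and *Cyp2c69*, was lower in the KO females (-4.43 ± 0.86, adjusted p = 0.00872), and *Hsd3b5*, a male-biased gene, was lower there too (-5.30 ± 1.10, adjusted p = 0.0113). Of 16 bile acid synthesis genes 9 were lower in chow-fed KO females and none passed in males (medians -0.52 and -0.41). With SC-435 9 were higher in KO females and 6 in KO males (medians 0.39 and 0.43), *Cyp7a1*, the rate-limiting enzyme, by 3.45 ± 0.69 (adjusted p = 0.00993) and 3.83 ± 0.37 (adjusted p = 0.000561). Of 19 other liver P450 enzymes 3 were lower in chow-fed KO females and 2 in males (medians -0.48 and -0.68), *Cyp4a14*, a fatty acid hydroxylase, in both (-1.99 ± 0.30, adjusted p = 0.00308, and -3.18 ± 0.60, adjusted p = 0.0474).

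The pattern of each gene over the 8 group means was compared with that of 3999 varying genes, as a description over 8 points that share libraries. *Cyp2c70* was most like *Tymp* (thymidine phosphorylase, Pearson r = 0.95), *Gna14* (0.93), *Slc16a13* (0.89), *Gm12473* (0.85) and *Cep85* (0.85), none of them a *Cyp2c* gene. Outside the family the most similar gene was *Slc22a26*, an organic anion transporter, for both *Cyp2c40* (r = 0.99) and *Cyp2c69* (r = 0.99), *Mpc1* for *Cyp2c37* (0.98), *Gm4756* for *Cyp2c50* (0.99), *1810021B22Rik* for *Cyp2c29* (0.98), *Paqr9* for *Cyp2c38* (0.98), *Nt5e* for *Cyp2c39* (0.98) and *Gprc5b* for *Cyp2c55* (0.95).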

How the data were processed

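RNA from 32 livers was poly-A selected and sequenced. The deposited table holds raw read counts per gene, made by the authors with HISAT2 2.0.5 and featureCounts 1.5.0-p3 on mm10 (submitters' processing notes, strandedness not given). The FPKM values deposited beside them were not used, nor were the authors' own fold changes, p-values and adjusted p-values. Groups came from the GEO labels. Genes were kept by filterByExpr, scaled by TMM and tested in edgeR 4.0.16 (R 4.3.3) with a quasi-likelihood fit on the 8 mice compared, or 16 for interactions. SE is the log2 fold change divided by the square root of F. DESeq2 1.42.0, limma 3.58.1 voom with quality weights, other scaling, no filter, 1 fit per sex, a replicate block and leaving out each mouse were the alternatives, and the scripts were tested on simulated data. The totals of 36476021 to 44771350 counts leave the spread between mice, not counting error, as the limit for all but the lowest genes. All 48 pairs of replicates within groups differed beyond sampling noise. The labels do not tie samples to litters or cohorts, so p-values measure only the spread between these mice.

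The members and gene lists were chosen with earlier results of these data known. Named were all 10 members in every comparison, the other *Cyp2c* genes, up to 4 genes per list by smallest adjusted p, and the genes most alike over group means (mean of at least 1 CPM, SD of at least 0.3). Some of the values that this rule covers are not reported here. Sequences came from GENCODE vM21 transcripts and RefSeq promoters (GRCm38). A promoter entry was found for 9 of 10 members. Same-numbered mice were not treated as pairs, since in no comparison were all 4 correlations of their deviations over 0.1 (r from -0.258 to 0.345, highest as a set between genotypes on chow in males, 0.0905 to 0.272).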

Additional observations from a re-analysis of the deposited data

Results flagged for a closer look

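With 4 mice a group, 8 of 80 combinations of member and group held a mouse far from the other 3 by Dixon's ratio of gap to range (above its 95% critical value), where chance flags about 1 in 20. In male WT chow replicate 1, *Cyp2c29* was at 4338 CPM against 1591 to 1908 in the other 3, *Cyp2c50* at 1778 against 868 to 954, and *Cyp2c54* at 784.9 against 341 to 397. That library had the lowest TMM factor (0.622), and by library size alone its values were 2698, 1105 and 488 CPM, with ratios of 0.741, 0.688 and 0.652, below the critical value. In male WT SC-435 replicate 4 the same 3 genes were low: *Cyp2c29* at 1354 against 2417 to 2532 CPM, *Cyp2c50* at 610.5 against 1249 to 1324, and *Cyp2c54* at 217.1 against 513 to 535. These stayed past the critical value by library size alone, at 1285, 579.7 and 206.1 CPM. *Cyp2c38* was at 92.43 CPM in female KO chow replicate 4 against 10.5 to 16.05 in the other 3, and *Cyp2c39* at 9.54 CPM in female WT chow replicate 3 against 7.72 to 7.91. By library size alone the *Cyp2c38* value stayed past the critical value (ratio 0.931) and the *Cyp2c39* value did not (0.814).

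The effect of SC-435 differed between genotypes in females for *Cyp2c50* (interaction log2 0.93, adjusted p = 0.0445 by edgeR) and *Cyp2c54* (0.84, adjusted p = 0.0476 by edgeR). As given above, each call was lost in most fits without 1 mouse, and with the replicate block 0 paralogs passed. The coding sequences of these genes are 95.2% identical, so both calls may rest in part on the same reads.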

How the results depend on the processing

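The count of paralogs that passed was set most by the tool and by single mice. Between genotypes on chow it was 0 in males by edgeR, 3 by DESeq2, 5 by voom and 3 with the 4 male groups in a single fit. In females it was 6, and 3 to 8 without 1 mouse, while voom and the single fit each called 1 higher and 8 lower. For SC-435 in KO females it was 5, 8 by voom and 4 to 8 without 1 mouse. For SC-435 in KO males it was 8, 5 with the replicate block, 5 in the single fit and 4 to 8 without 1 mouse. For SC-435 in WT it was 1 in females and 0 in the single fit, and 0 in males, 4 by DESeq2, 5 by voom, 2 in the single fit and 0 to 2 without 1 mouse. The female interaction of genotype and diet had 2, 8 by voom, 0 with the replicate block and 0 to 7 without 1 mouse. Between the sexes the count was 5, and 8 by voom with 7 higher and 1 lower in females, and the sex by genotype interaction had 0, 1 by voom and 0 to 1 without 1 mouse. The calls over all genes changed with these settings as well, as given above for males on chow. They are not given beside most of these counts, which therefore are not a result about the paralogs alone. The cause of these changes was not tested. Same-numbered mice share only a number, and the block moved no other count by more than 1.5 times.

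Of 1139 values under an alternative of the members whose fold changes are printed one by one, 963 kept their direction and side of the threshold, 101 lost the call, 66 gained it and 9 changed sign, none of these with a call under either setting. These sign changes were *Cyp2c39* between genotypes on chow in males (0.11 by library size alone, -0.29 to 0.0016 without 1 mouse), *Cyp2c55* there (-0.11 by voom, -0.10 to 0.50 without 1 mouse), and *Cyp2c55* with SC-435 in KO males (-0.26 by library size alone, -0.22 to 0.35 without 1 mouse) and KO females (-0.27 to 0.0515 without 1 mouse). Members printed only as counts also changed sign, among them *Cyp2c29* with SC-435 in WT males (-0.11, and 0.46 by voom with an adjusted p of 0.0456).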
